A study of Mus musculus with 2 samples.

Results

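The expression of 10 genes of the pigment cell lineage (Mitf, Kit, Ednrb, Pmel, Mlana, Dct, Tyrp1, Tyr, Slc45a2 and Oca2) was examined in RNA of wild-type mouse embryos taken whole at E14.5. The genes were taken from a list of melanocyte genes, and all 10 were found on the array, with 19 probe sets among the 34958 probe sets that paired with 1 of 18194 gene symbols. Affymetrix mouse genome arrays, which measure each transcript by sets of short oligonucleotides (probe sets), were run in duplicate on total RNA isolated with RNAzol, and the 2 arrays (array 1 and array 2) are the only samples. Both are of 1 condition, so no groups were compared and no test between conditions was possible. Neither labels nor methods state if separate embryos or separate RNA gave the duplicates, and their spread may be technical. Embryos of this stage were of the NMRI strain, which is albino, or of C57/BL6, which is pigmented, and the strain on the arrays is not stated.

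Melanocytes of the skin arise from the neural crest. Their precursors, the melanoblasts, migrate under the ectoderm and depend on the transcription factor Mitf, on signals through the receptor tyrosine kinase Kit and on endothelin signals through the receptor Ednrb. Pigment is made in melanosomes, lysosome-related organelles in which Pmel forms a fibrillar matrix, the enzymes Tyr, Tyrp1 and Dct make melanin from tyrosine, and the membrane proteins Slc45a2 and Oca2 set the conditions for the enzymes. The retinal pigment epithelium of the eye, which arises from the neural tube and not from the crest, uses the same melanosome genes. Mitf, Kit and Ednrb have further sites of expression in the embryo, among them mast cells, blood progenitors and the enteric nervous system.

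A transcript was counted as above background when its signal passed a bound. For each array the bound was the 95th percentile of the signals of 81 chemosensory probe sets (odorant, vomeronasal and bitter receptors), whose genes were taken as silent in the embryo. This bound was 27.9 on array 1 and 33.8 on array 2, in the linear units of the deposited signals, and both arrays had a mean of 100 after trimming of 2% at each end. The level of 1 gene was not set against that of another, since the oligonucleotides of probe sets differ in response. Where a gene is represented by 1 of its probe sets, the one with the highest mean signal was taken for display.

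Of the 10 genes, 6 lay above background on both arrays: Mitf, Kit, Ednrb, Pmel, Dct and Slc45a2. Tyr passed on array 2 only, and Tyrp1, Mlana and Oca2 passed on neither array. By role, the regulator, both receptors and the matrix protein passed, as did 1 of 3 enzymes of the tyrosinase family and 1 of 2 membrane transporters. This split rests in part on calls near the bound. Mitf passed at 1.07 times the bound of array 2 and was lost with the bound at the 99th percentile. Tyr passed on both arrays with the bound at the 90th percentile. A difference between the roles was not tested. Over all genes 65.5% passed, so the share of 6 in 10 is close to the background. By probe sets, 7 of 19 (36.8%) passed on both arrays, against 55.6% of all probe sets with 1 symbol. Genes with more probe sets passed more often over the whole array, with 48.6% for 1 probe set, 76.1% for 2 and 87.4% for 3. Among the pigment cell genes 2 of 4 with 1 probe set passed, 3 of 3 with 2, and 1 of 3 with 3. A weak signal can come from few cells or from little RNA per cell, which cannot be told apart in whole embryos.

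**Figure D1:**
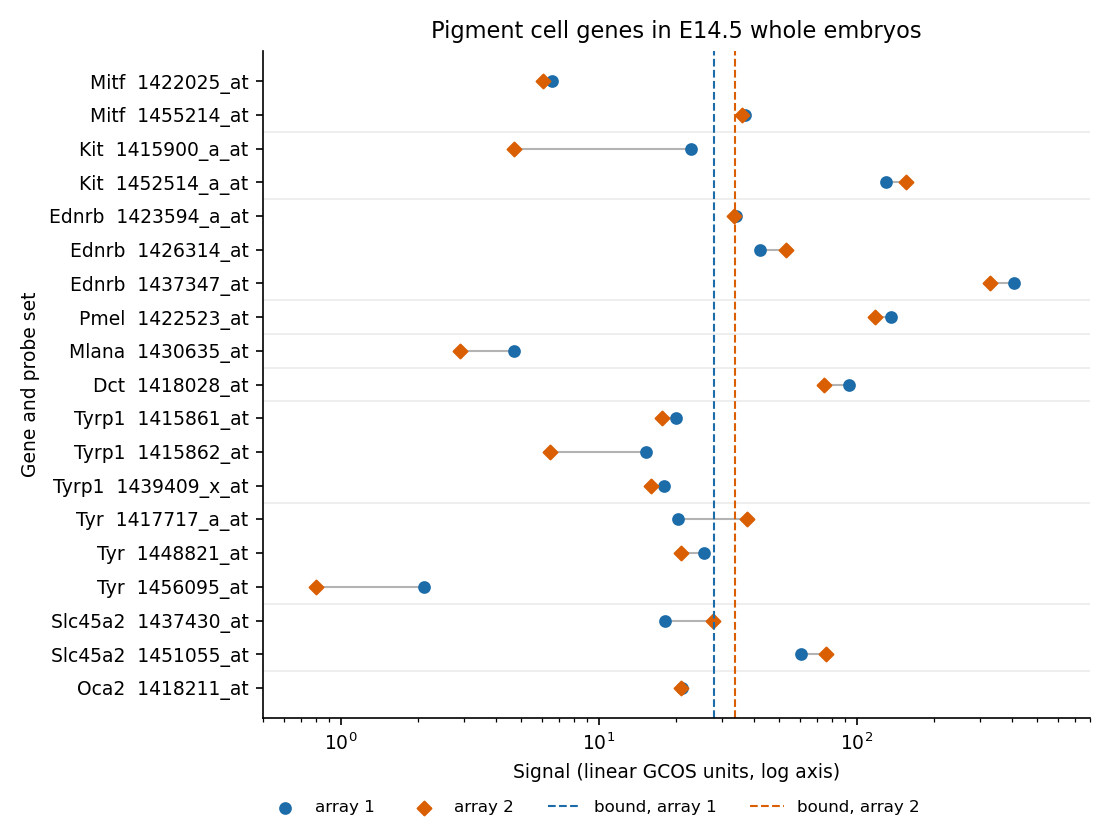
Signal of every probe set of the 10 genes on array 1 (circles) and array 2 (diamonds), in linear units on a log axis, with the background bound of each array as a dashed line. The 7 probe sets that passed on both arrays, of Mitf, Kit, Ednrb, Pmel, Dct and Slc45a2, lie right of both lines. The other probe sets of Mitf, Kit and Slc45a2 lie left of both lines, as do all those of Tyrp1, Mlana and Oca2. The third Ednrb probe set passed on array 1 only.

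Mitf, the basic helix-loop-helix leucine zipper factor that activates most pigment genes, was above the bound through 1 of its 2 probe sets. Probe set 1455214_at gave 36.8 on array 1 and 36.0 on array 2, which was 1.32 and 1.07 times the bound. The other probe set, 1422025_at, lay at 6.6 and 6.1. The duplicates were close for both probe sets, and the passing one lay just over the bound on array 2. With the bound at the 99th percentile (33.9 on array 1 and 41.4 on array 2) Mitf passed on array 1 only.

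Mitf has several promoters in mouse, and the most downstream one is known to drive the melanocyte isoform. RefSeq (GRCm38.p6) gives windows of 250 bases upstream of 3 transcript starts. The most downstream window holds a cAMP response element, the palindrome TGACGTCA, through which melanocortin signals are known to act on this promoter. The stretch around it is shown with the element in capitals, on the plus strand at chr6:97991590-97991677. A connection between Mitf and the melanocortin genes described further on was not tested.

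Mitf: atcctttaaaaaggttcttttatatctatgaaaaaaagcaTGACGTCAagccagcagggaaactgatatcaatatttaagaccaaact

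The element was found in 1.55% of all 32851 windows and in 1.77% of the 27025 genes with a window. A match of letters is a description and does not show that the element was used. The files do not say which Mitf isoform the probe sets detect.

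Kit, the receptor for stem cell factor, passed through probe set 1452514_a_at, at 130 on array 1 and 155 on array 2. Its other probe set, 1415900_a_at, had 22.8 and 4.7, below the bound on both arrays, a 4.85-fold difference between 2 signals that are not above background. Ednrb, the receptor for endothelins, passed on both arrays through 2 of its 3 probe sets. Probe set 1437347_at had signals of 408 and 329. The second, 1426314_at, had 42.0 and 53.0, and the third, 1423594_a_at, was above the bound on array 1 at 34.1 and just under it on array 2 at 33.3. Array 1 was the higher for 1437347_at and array 2 for 1426314_at, so the probe sets of this gene give no common direction between the duplicates.

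Of 2 further melanosome protein genes, Pmel passed and Mlana did not. Pmel, whose protein forms the fibrils on which melanin is laid down, gave 136 on array 1 and 118 on array 2, both at least 3.49 times the bound. Mlana, which encodes a small membrane protein of melanosomes and is a common marker of melanocytes, had only 4.7 and 2.9 in its single probe set. Both genes are represented by 1 probe set, and the response of that probe set to its transcript is not known.

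Of the tyrosinase family, the enzymes of melanin synthesis, 1 of 3 genes passed. Dct, dopachrome tautomerase, is known as an early marker of melanoblasts in mouse and was above background at 93.5 on array 1 and 74.8 on array 2. Tyrp1, the product of the brown locus, was below the bound in all 3 probe sets, with 19.9 and 17.6 for 1415861_at, 15.3 and 6.5 for 1415862_at and 17.9 and 16 for 1439409_x_at. Tyr, the rate-limiting enzyme and product of the albino locus, had 20.2 and 37.7 for 1417717_a_at, 25.5 and 20.9 for 1448821_at and 2.1 and 0.8 for 1456095_at. Of these 6 signals only 37.7 passed, at 1.12 times the bound of array 2. The probe sets of Tyr gave no common direction between the duplicates, since 1417717_a_at was higher on array 2 and the other probe sets were higher on array 1.

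The promoters of the 3 enzyme genes share a run of 10 bases, although only Dct was above background on both arrays. The run is shown in capitals within up to 40 bases on each side, upstream of the RefSeq start (GRCm38.p6), on the minus strand at chr14:118052349-118052438 for Dct, on the minus strand at chr7:87493513-87493575 for Tyr and on the plus strand at chr4:80834125-80834212 for Tyrp1.

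Dct: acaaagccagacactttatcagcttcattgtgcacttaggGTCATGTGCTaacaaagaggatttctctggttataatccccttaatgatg
Tyr: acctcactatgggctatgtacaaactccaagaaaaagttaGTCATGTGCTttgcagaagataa
Tyrp1: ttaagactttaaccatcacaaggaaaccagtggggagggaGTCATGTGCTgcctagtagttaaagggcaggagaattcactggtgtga

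GTCATGTGCT was found by script as the longest run that these 3 windows have in common, on either strand, so its presence in them is by construction. It begins 152 bases upstream of the start in Dct, 48 in Tyrp1 and 23 in Tyr, and it contains CATGTG, the core of the M box to which Mitf is known to bind. On either strand the run occurs in 0.144% of the genes with a window (39 of 27025). No other gene with a window in the lists used here carries it. The core CATGTG (or CACATG on the other strand), which is 1 form of the E box CANNTG, occurs in 13.8% of genes with a window. Among the pigment cell genes it was found in 4 of the 7 with a window, these 3 and Oca2, where it lies on the other strand 186 bases upstream. In lists described further on, 4 of 8 other melanosome and pigment genes with a window carry the core. So do 3 of 8 retinal pigment epithelium genes and 2 of 4 osteoclast genes. The core was also in 1 of 2 Schwann cell lineage, 1 of 3 germ cell and 1 of 6 mast cell genes. Ligand and melanocortin genes had it in 1 of 6 and lysosome-related organelle genes in 2 of 14. In lists taken as silent, it was in 1 of 5 milk and adult liver genes. There it was also in 1 of 6 photoreceptor and 1 of 9 late spermatid genes. It was in none of the 6 lineage transcription factors, 6 blood progenitor genes and 5 melanosome transport genes with a window. Nor was it in the Mitf relatives, endothelin relatives, enteric and autonomic crest genes or endothelial genes. Dct carries it again on the other strand, 232 bases upstream. It was not found in the windows of Mitf, Kit and Ednrb. No windows were used here for Pmel, Mlana and Slc45a2. Genes with the core thus included both Dct, above the bound, and Tyr, Tyrp1 and Oca2, which were not above it on both arrays.

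**Figure D2:**
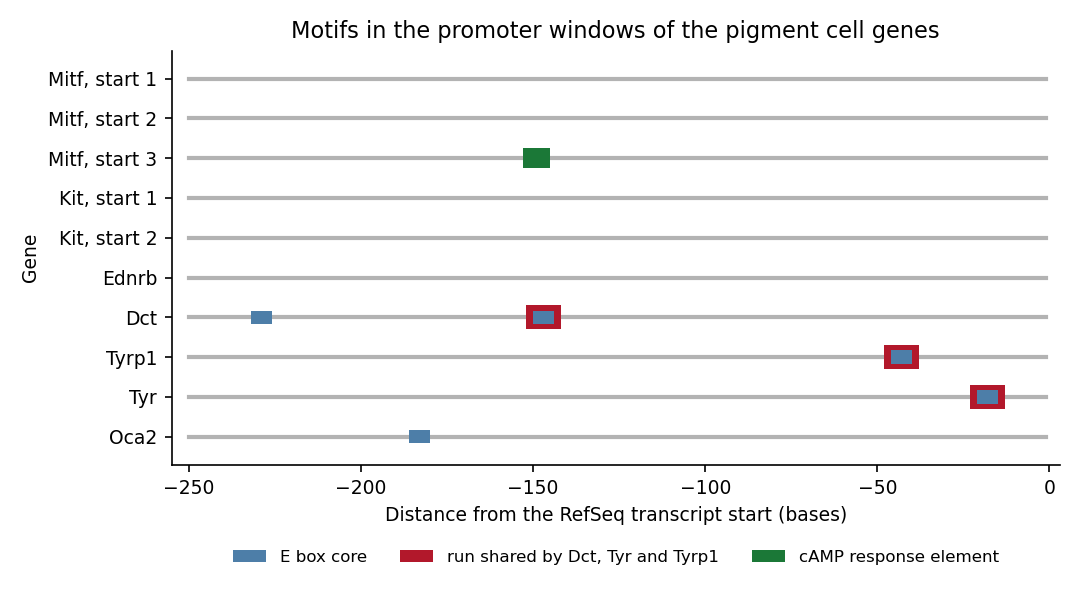
Positions of the E box core (blue), the run shared by Dct, Tyr and Tyrp1 (red) and the cAMP response element (green) in the 250 bases upstream of each RefSeq transcript start, by distance from the start in bases. The shared run lies in Dct, Tyrp1 and Tyr, and the cAMP response element in the most downstream of the 3 Mitf windows.

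The membrane transport proteins of the melanosome gave 1 gene above background. Slc45a2, the transporter altered in underwhite mice, passed through probe set 1451055_at, at 60.7 on array 1 and 75.7 on array 2. Its other probe set, 1437430_at, lay at 18.0 and 27.7, below both bounds. Oca2, the product of the pink-eyed dilution locus, had 21.1 and 20.8 in its single probe set. The duplicates for Oca2 were close to each other and below the bound on each array.

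The duplicate arrays differed by less than 1.5-fold for each of the 7 probe sets that passed, but their median absolute difference was larger than that over all probe sets above background. After centring on the median of all 22138 probe sets above background on both arrays, the log2 difference (array 1 minus array 2) ranged from -0.33 to 0.33 over the 7 probe sets, with a median of 0.04. In 4 of them the signal was higher on array 1 and in 3 on array 2. The Ednrb probe set 1426314_at had -0.33, Slc45a2 -0.31 and Kit -0.25, and Dct had 0.33, the Ednrb probe set 1437347_at 0.32, Pmel 0.21 and Mitf 0.04. Differences of more than 1.5-fold between the arrays were found for 3.74% of all probe sets above background, and for none of these 7. Their median absolute difference was 0.31, against 0.14 over all, and the SD of the difference over all was 0.26. The 7 probe sets were not matched to the others for signal, and whether the contrast depends on signal was not tested. These values describe 1 array against 1 array of the same condition.

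**Figure D3:**
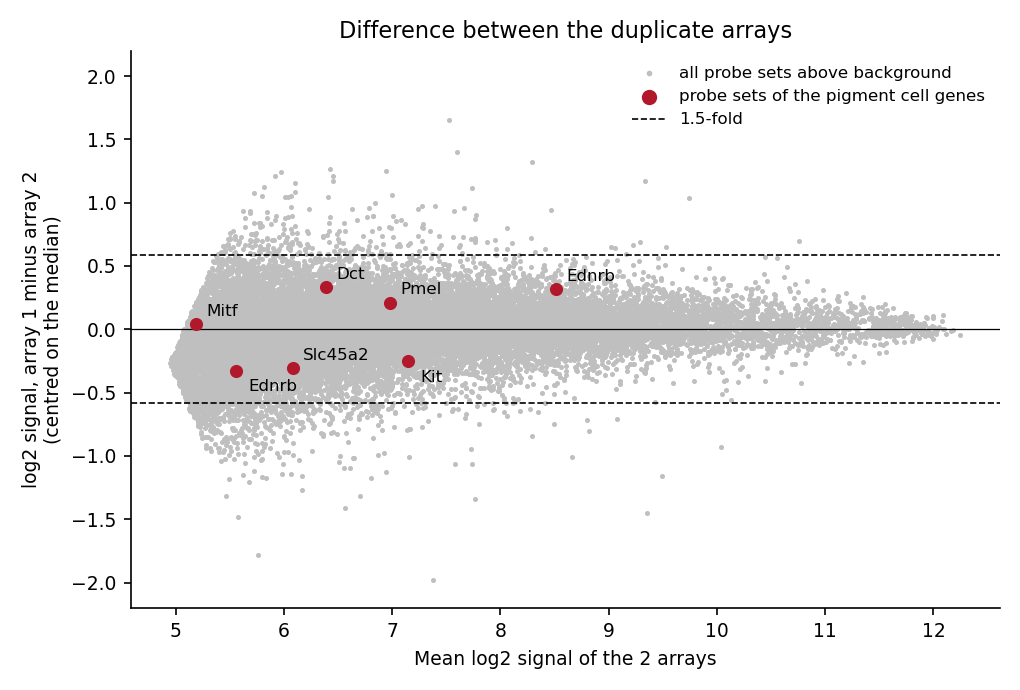
Centred log2 difference between array 1 and array 2 against the mean log2 signal, for all probe sets above background (grey) and the 7 of the pigment cell genes (red). Dashed lines mark 1.5-fold, and all 7 lie between them, from -0.33 to 0.33.

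Further genes of the pathway were taken from 7 lists with 57 names, of which 54 were measured and 40 (74.1%) passed on both arrays. Over all genes 65.5% passed, a share that rose with probe sets per gene, from 48.6% for 1 to 87.4% for 3. The lists were not matched for this, and among the lineage factors Sox5 has 7 probe sets and Zeb2 has 5. The 65.5% is thus only a rough value to set beside each list. All 10 transcription factors of the neural crest and the melanocyte lineage were above background. Sox10, which activates Mitf, had signals of 127 on array 1 and 112 on array 2, and Pax3, its partner at the Mitf promoter, had 60.0 and 85.8 in its probe set with the highest mean. Foxd3, a factor of early neural crest cells, had 46.2 and 47.5, and Lef1, an effector of Wnt signals, had 40 and 39.9. With the bound at the 99th percentile 9 of the 10 passed, as Lef1 was lost. These factors also act in other neural crest derivatives and, for Pax3, in the neural tube and muscle precursors. Of the relatives and partners of Mitf, Tfe3, Tfeb, Usf1 and Creb1 passed, and Tfec did not, at 19.6 and 28.6. Usf1 was lost with the 99th percentile bound.

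The ligands of both receptors were represented. Kitl, the Kit ligand, passed through 3 of 4 probe sets, with 327 on array 1 and 280 on array 2 for 1415855_at. Edn3, the ligand of Ednrb in neural crest cells, passed through 1 of 4 probe sets, 1441924_x_at, at 58.1 and 41.5. The suffix of this probe set marks possible cross-hybridisation, and without probe sets of that type Edn3 was not above background on both arrays. Ece1, the protease that activates endothelins, had 162 and 81.7 in 1455741_a_at, a centred log2 difference of 1.00 (array 1 minus array 2). Of the melanocortin genes, Pomc, the precursor of melanocortin peptides, passed at 48.0 and 61.0, and their receptor Mc1r did not, with signals from 1.3 to 19.0 in 2 probe sets. Atrn, a membrane protein needed for agouti signalling, was above the bound on array 1 only, at 45.9 against 10.1 on array 2. Among other endothelin genes Ece2 passed at 152 and 159, and Edn1 (9.6 and 8.5) and Edn2 (19.7 and 33.5) did not.

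**Figure D4:**
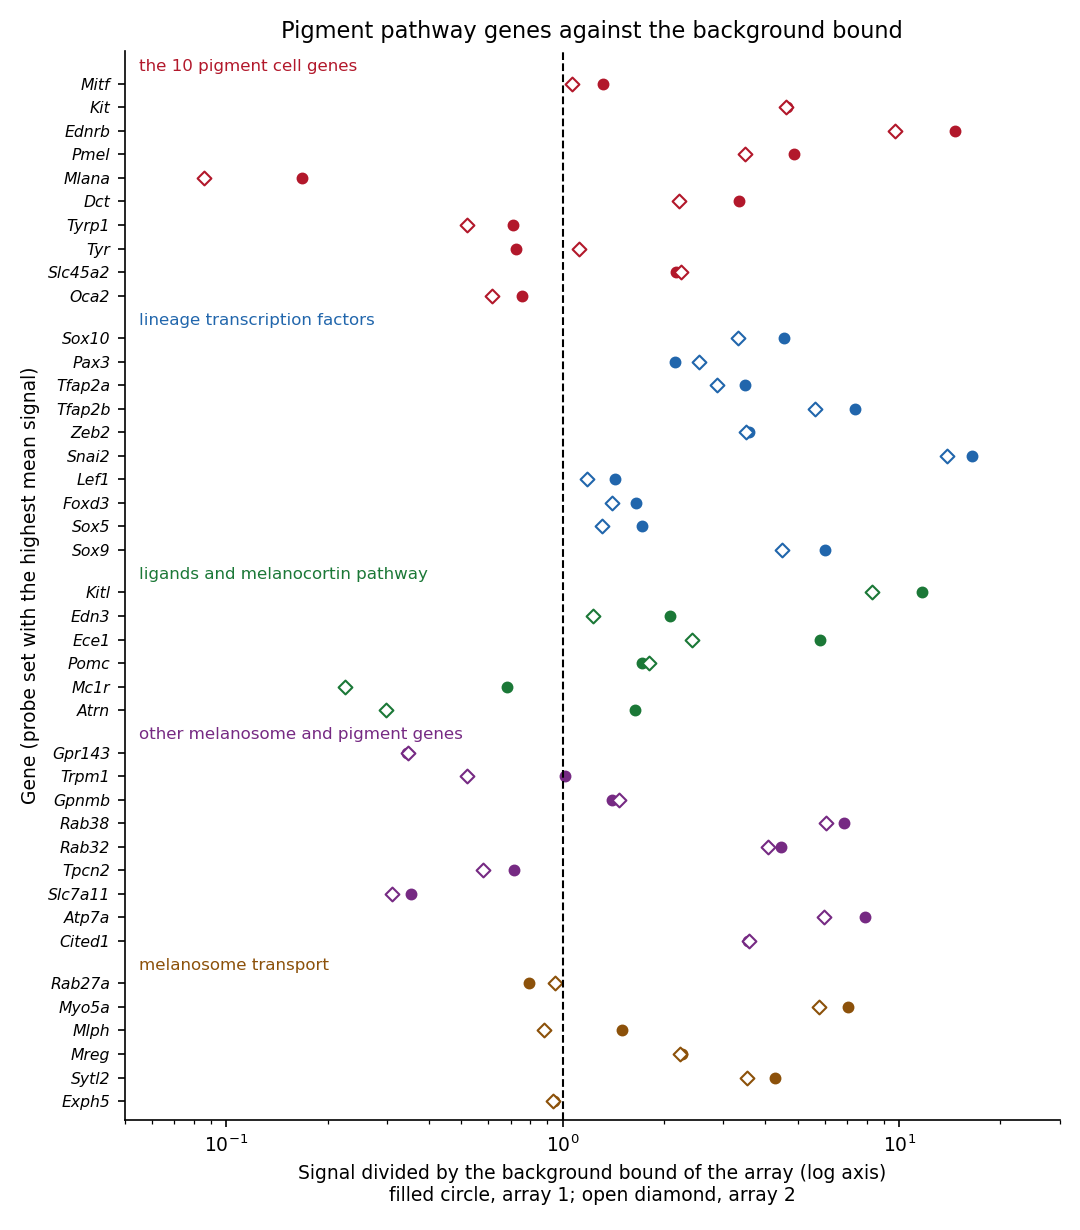
Signal divided by the background bound of its array (log axis) for the probe set with the highest mean of each gene, on array 1 (filled circles) and array 2 (open diamonds), for the 10 pigment cell genes and 4 lists of the pathway. The dashed line is the bound, and all 10 lineage transcription factors lie to its right on both arrays.

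The remaining melanosome genes fell on both sides of the bound. Rab38 and Rab32, small GTPases that carry melanosome enzymes, passed at 192 and 204 and at 124 and 138. Atp7a, the copper transporter that supplies tyrosinase, Cited1 and Gpnmb also passed, Gpnmb at 39.2 on array 1 and 49.6 on array 2. Gpr143, the ocular albinism receptor and a target of Mitf, had 9.6 and 11.7, and Tpcn2 (20.0 and 19.6) and Slc7a11 (at most 10.5) were also below the bound on both arrays. Trpm1, another Mitf target, reached 28.3 on array 1 only. Genes of melanosome transport passed in 3 of 6 cases, with the motor gene Myo5a at 197 and 195 and Mreg and Sytl2 also above the bound. Mlph, which links Myo5a to Rab27a, had 42.0 and 29.7 and so passed on array 1 only, and Rab27a and Exph5 stayed below both bounds, with at most 32.0 for each of them. Genes for the biogenesis of lysosome-related organelles, which most cells use, passed in 13 of 15 cases, with Hps5 (24.9 and 27.9) and Hps6 (14.0 and 27.3) as the exceptions. Hps1 was lost from these 13 without probe sets of possible cross-hybridisation.

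The 10 genes were also set beside markers of other cells that express some of them. In the retinal pigment epithelium list 3 of 8 genes passed: Rlbp1 at 57.9 and 71.4, Rdh5 at 53.1 and 63.2 and Otx2 at 31.9 and 43.5. Otx2 was lost on array 1 with bounds at the 99th percentile and at the array median, which left 2 of 8. Rpe65 and Best1, which define the differentiated epithelium, had 8.0 and 14.1 and 3.4 and 3.8. Lrat (at most 7.5) and Rgr (2.6 and 25.8) were also below both bounds. Stra6, at 30.7 and 32.0, passed on array 1 only, and on both arrays with the bound at the 90th percentile. Mast cells, which depend on Kit and Mitf, gave 3 of 8, with the protease genes Cpa3 (144 and 131) and Cma1 (142 and 134) and the histamine enzyme gene Hdc (51.5 and 48.4 in 1454713_s_at). Both Hdc probe sets are of the type marked for possible cross-hybridisation, and without that type 2 of 7 mast cell genes passed. The IgE receptor genes Fcer1a and Ms4a2 had signals of at most 16.3 and 25.7, and Mcpt4 and Tpsab1 at most 10.3 and 13.2. Tpsb2, at 33.8 and 29.0 in 1422180_a_at, passed on array 1 only, and on both arrays with the bound at the 90th percentile. All 7 genes of blood progenitors, which also carry Kit, passed, among them Gata2 at 116 and 98.6 and Cd34 at 266 and 235. Myb passed only through 1421317_x_at, at 103 and 98.9, and without probe sets of possible cross-hybridisation 6 of 7 passed. None of the 5 germ cell genes did, with signals from 1.1 to 33.6.

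For Ednrb, all 4 measured genes of enteric and autonomic neural crest passed, with the receptor gene Ret at 59.3 on array 1 and 56.7 on array 2, and all 5 endothelial genes passed, with Kdr at 180.2 and 167. Pecam1 was lost from these 5 with the 99th percentile bound. In the Schwann cell lineage, with which melanoblasts share a precursor, Erbb3 (262 and 238) and Fabp7 (565 and 442) passed and Egr2 and Cdh19 did not. The osteoclast list, included because osteoclasts use Mitf, gave 3 of 6, with Acp5, Ctsk and Mmp9 above background. Over the 8 marker lists of other cells, 27 of 47 measured genes (57.4%) passed, against 65.5% of all genes. Some markers of cells other than melanocytes were thus above background beside Mitf, Kit and Ednrb, and others on these lists were not. The part of such other cells in the signals of Mitf, Kit and Ednrb was not tested. Nor was the part of the retinal pigment epithelium, which uses the same melanosome genes, in the signals of Pmel, Dct and Slc45a2. Of the 26 measured genes in 3 lists taken as silent (late spermatids, photoreceptors, and milk and adult liver proteins), 1 passed, Cyp2c29 at 37.4 and 56.6.

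**Figure D5:**
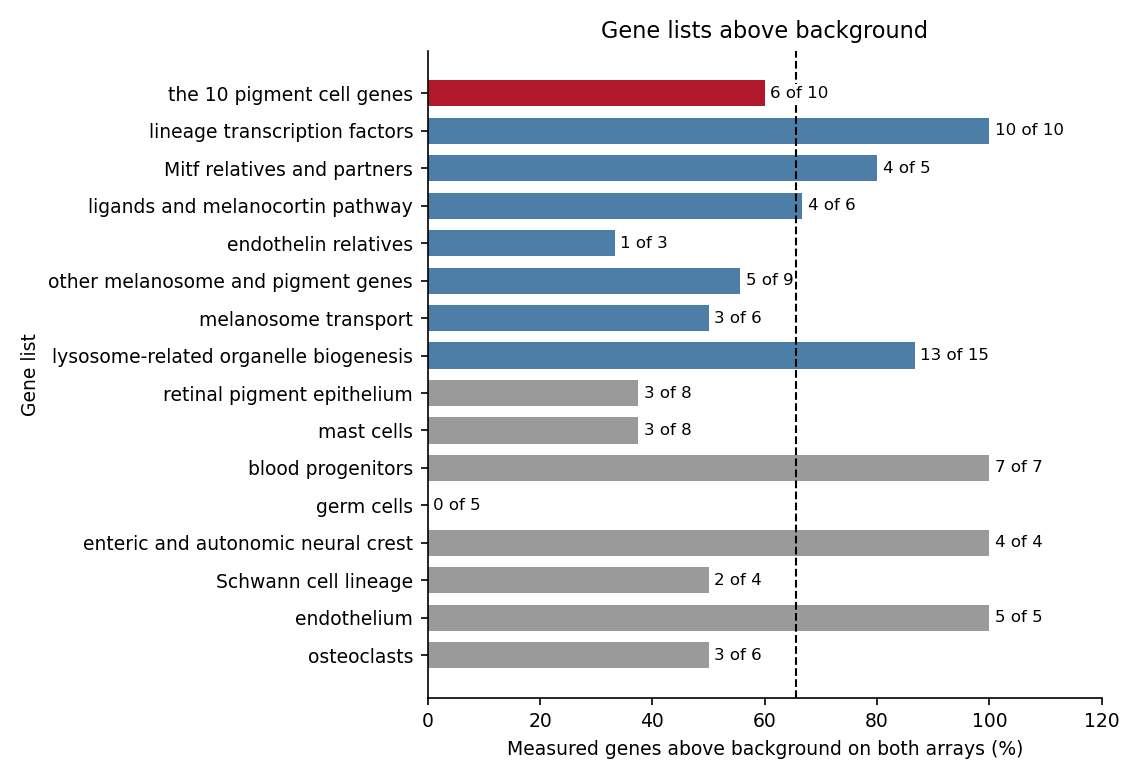
Share of measured genes above background on both arrays, in percent, for the 10 pigment cell genes (red), lists of their pathway (blue) and marker lists of other cells (grey), with the numbers of genes beside the bars. The dashed line is the share over all genes, 65.5%, and the red bar ends at 60.0%, to its left.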

How the data were processed

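Whole-embryo RNA had been measured on 2 duplicate arrays. Per the submitters' processing notes GCOS 1.3 was used on the scans, and the authors deposited 1 signal intensity per probe set and array, on a linear scale, scaled per array to a trimmed mean of 100. Detection calls, by which the study scored genes as present, were not used here. Probe sets were named from the array annotation and updated by gene identifier through RefSeq (GRCm38.p6) where listed (34754 of 34958). The 932 probe sets with several symbols and 9211 with none named no gene. A gene passed when each array had at least 1 of its probe sets over the bound. The text names all 10 genes with every probe set and, from each list, the genes above background or those that were not, whichever were fewer, with those needed for an account. The genes and lists were chosen with earlier results of these data known, and no p-value was computed. Of 136 names in the lists, 9 were not analysed here. The number of arrays limits the precision. Alternatives were other bounds, the same probe set on both arrays, removal of probe sets ending in _s_at or _x_at, each array alone, no centring, quantile normalization, and no filter with a pseudocount of 16. The steps were run on simulated data. There, silent genes took their signals from the chemosensory probe sets that set the bound, and expressed genes mostly lay well above it. Calls near the bound were therefore not probed. Python 3.11.15 was used with pandas 2.3.3, numpy 2.4.6, scipy 1.17.1 and matplotlib 3.10.9.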

Additional observations from a re-analysis of the deposited data

How the results depend on the processing

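The number of pigment cell genes above background was 7 with the bound at the 90th percentile, where Tyr joined, and 5 with the 99th, where Mitf was lost. It was 6 with the same probe set on both arrays, with _s_at and _x_at probe sets removed, and with bounds from the silent lists or the array median. With single arrays it ranged from 6 to 7, Tyr being the gene added with array 2 alone. The share over all genes ranged from 61.9% to 69.0%. Kit, Ednrb, Pmel, Dct and Slc45a2 passed, and Tyrp1, Mlana and Oca2 did not, under all 8 alternatives. Of 144 list counts 140 were within 1.5 times the main value. The exceptions, all with the 90th percentile bound, were melanosome transport (5), milk and adult liver proteins (2), late spermatids (1) and germ cells (1), since a lower bound lets more genes pass. Of the list genes above background, Lef1, Usf1, Otx2 and Pecam1 were lost with the 99th percentile bound, Otx2 with the array median, and Edn3, Hps1, Hdc and Myb without _s_at and _x_at probe sets, where Hdc had no probe set left. The median difference between the arrays ranged from -0.03 to 0.17 over 5 alternatives, against 0.04 in the main setting. All lay within 0.26 of the main value, but 0.26 is the SD of single probe set differences and not the spread of such a median. No paired analysis was possible because the arrays are of 1 condition. Of the 10 genes only Mitf and Tyr changed their call with the bound.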
